A study of Mus musculus with 4 samples.

Results

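The genes that encode the proteasome and its immune form were followed in 4 RNA-seq libraries of CD11b+Ly6g+ myeloid-derived suppressor cells (MDSCs) sorted from mouse lung. Members were the protein-coding genes whose symbol begins with Psma, Psmb, Psmc, Psmd, Psme, Psmf or Psmg and a digit, which gave 50 of the 54532 genes in the count table. Of these, 49 encode proteasome subunits, activators, an inhibitor or assembly chaperones. The remaining one, Psmc3ip, encodes a recombination factor and matched by name only.

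All mice were C57BL/6, 6 to 8 weeks old, and carried a model of the pre-metastatic niche (PMN), the tissue state that precedes metastasis. Medium conditioned by B16F10 melanoma cells was injected intraperitoneally at 300 µL for 10 days, B16F10 cells were given by tail vein on day 7, and lungs were taken on day 10. The control group (Ctrl) received no peptide, and the other groups received TP5, sFD17 or FR17 under the skin at 40 µM/kg/day from day 3. TP5 is thymopentin, an immunomodulatory pentapeptide of thymopoietin. FR17 carries TP5 on a self-assembling peptide backbone through a linker that the protease MMP2 can cut, and sFD17 is its counterpart with the pentapeptide scrambled. Each library came from sorted cells pooled from 10 to 12 mice, so every group had 1 library and no difference below has a replicate check or a p-value. Healthy lung was not analysed here, and the control mice carried the tumor-derived stimuli too.

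The proteasome is the barrel-shaped protease that degrades ubiquitin-tagged proteins. Its 20S core is built of alpha and beta rings, and the beta ring holds the catalytic subunits Psmb5, Psmb6 and Psmb7. In immune cells and under interferon these are replaced by the inducible subunits Psmb8, Psmb9 and Psmb10, which gives the immunoproteasome and alters the peptides offered to major histocompatibility complex (MHC) class I. The 19S regulatory particle unfolds substrates with its ATPases (Psmc genes) and recognizes ubiquitin with its non-ATPase subunits (Psmd genes). The PA28 activator, made of Psme1 and Psme2, is a further interferon-responsive cap on the core.

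The promoters of the inducible subunits and of PA28 are shown with those of the constitutive subunits Psmb5 and Psmb6, because the inducible and the constitutive set are contrasted here. Each stretch covers 250 bases before and 50 bases from the RefSeq transcription start on, in build GRCm38.p6, written 5′ to 3′ on the strand of the gene. Capitals mark matches, on either strand, to 3 short motifs, which are the core of the interferon-stimulated response element (ISRE), made of GAAA, any 2 bases and GAAA again, TTCNNNGAA, the core of the gamma-activated site (GAS) bound by STAT proteins, and TGACNNNGC, the core of the antioxidant response element (ARE) bound by Nfe2l1 and Nfe2l2.
Psmb8 (chr17:34197945-34198244, + strand): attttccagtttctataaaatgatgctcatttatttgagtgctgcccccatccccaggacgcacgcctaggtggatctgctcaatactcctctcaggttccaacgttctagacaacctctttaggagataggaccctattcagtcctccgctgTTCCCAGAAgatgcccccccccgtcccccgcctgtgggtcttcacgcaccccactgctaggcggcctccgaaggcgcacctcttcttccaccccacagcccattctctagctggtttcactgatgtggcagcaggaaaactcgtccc
Psmb9 (chr17:34187281-34187580, - strand): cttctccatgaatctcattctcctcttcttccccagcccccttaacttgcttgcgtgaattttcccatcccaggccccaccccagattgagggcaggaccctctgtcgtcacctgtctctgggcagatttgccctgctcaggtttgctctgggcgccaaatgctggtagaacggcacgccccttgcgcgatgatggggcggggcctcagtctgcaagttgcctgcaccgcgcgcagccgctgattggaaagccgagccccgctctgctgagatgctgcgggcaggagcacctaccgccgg
Psmb10 (chr8:105938343-105938642, - strand): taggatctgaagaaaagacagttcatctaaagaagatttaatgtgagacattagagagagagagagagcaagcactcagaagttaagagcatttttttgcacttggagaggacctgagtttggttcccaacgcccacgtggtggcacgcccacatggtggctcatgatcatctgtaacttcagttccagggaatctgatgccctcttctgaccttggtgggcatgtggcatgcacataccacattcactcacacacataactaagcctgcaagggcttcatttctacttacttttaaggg
Psme1 (chr14:55578244-55578543, + strand): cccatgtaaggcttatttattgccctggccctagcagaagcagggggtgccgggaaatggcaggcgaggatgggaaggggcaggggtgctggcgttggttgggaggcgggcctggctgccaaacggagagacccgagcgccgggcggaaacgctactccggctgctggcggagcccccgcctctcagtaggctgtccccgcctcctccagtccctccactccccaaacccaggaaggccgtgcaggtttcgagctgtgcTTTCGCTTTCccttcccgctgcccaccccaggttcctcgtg
Psme2 (chr14:55591052-55591351, - strand): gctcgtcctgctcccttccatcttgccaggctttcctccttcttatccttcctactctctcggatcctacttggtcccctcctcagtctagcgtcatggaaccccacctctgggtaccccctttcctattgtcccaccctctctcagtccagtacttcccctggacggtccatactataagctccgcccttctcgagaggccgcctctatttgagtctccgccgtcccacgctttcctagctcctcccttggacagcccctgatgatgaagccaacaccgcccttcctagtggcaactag
Psmb5 (chr14:54617946-54618245, - strand): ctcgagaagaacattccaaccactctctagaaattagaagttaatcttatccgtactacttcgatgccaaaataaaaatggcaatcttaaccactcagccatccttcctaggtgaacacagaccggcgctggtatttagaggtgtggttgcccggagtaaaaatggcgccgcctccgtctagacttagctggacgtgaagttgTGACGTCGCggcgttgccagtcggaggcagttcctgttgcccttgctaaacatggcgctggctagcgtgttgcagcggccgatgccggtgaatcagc
Psmb6 (chr11:70525107-70525406, + strand): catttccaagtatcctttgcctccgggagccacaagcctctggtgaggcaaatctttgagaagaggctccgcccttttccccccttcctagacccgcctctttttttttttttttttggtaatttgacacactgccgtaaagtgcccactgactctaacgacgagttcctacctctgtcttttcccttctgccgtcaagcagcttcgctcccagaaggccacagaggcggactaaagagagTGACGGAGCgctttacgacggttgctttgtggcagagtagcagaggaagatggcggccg
RefSeq promoters were matched for 42 of the 50 members. The ISRE core occurred in 3.44% of all 32851 promoters and in those of 5 members, Psmb3, Psmd4, Psmd9, Psme1 and Psmg4. The GAS core occurred in 8.30% of promoters and in Psmb8, Psmd2 and Psmg1, and the ARE core in 12.4% of promoters and in Psmb5, Psmb6, Psmc6, Psmd9, Psmd12 and Psme4. In Psmb8 the GAS match lay 97 to 89 bases before the start, and in Psme1 the ISRE match lay 9 to 18 bases after it. Psmb9, Psmb10 and Psme2 held none of the 3 motifs in these windows. A match is a description of the sequence, not of binding.

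The libraries held 15543071 to 19638228 counts, and the members took 0.183 to 0.262% of them. The sorting markers were present throughout, at 5711 to 6924 counts of Itgam (encoding CD11b) and 1234 to 2081 counts of Ly6g, which does not measure purity. Beside 1234 counts of Ly6g, Ctrl held 177455 of the granulocyte marker S100a9, 12261 of the macrophage marker C1qa and 16058 of the monocyte marker Csf1r. Markers of other cells were detected as well, with none of those listed at 0 in any library. Levels are given in CPM, counts scaled to a common library total, after TMM scaling, which adjusts for differences in RNA composition. On this scale the summed level of the 12 macrophage markers ranged from 2309 CPM in sFD17 to 8110 CPM in FR17. Relative to Ctrl it was 0.806-fold in TP5, 0.366-fold in sFD17 and 1.29-fold in FR17. The 11 granulocyte markers summed to 1.09-fold, 1.30-fold and 0.887-fold of Ctrl, and the 6 natural killer cell markers to 0.594-fold, 0.796-fold and 3.19-fold. In bulk samples, fewer cells of a type and less RNA per cell cannot be told apart. The CPM levels below are on the same TMM scale, and a fold change is a ratio on that scale. A gene was tested where at least 1 library had 10 counts, which left 16369 genes and 48 members. It was called changed at 1.5-fold or more, and every interval in parentheses is a 95% interval of counting error only.

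The main difference was between sets of proteasome genes in the sFD17 library. The inducible catalytic subunits and the PA28 activator were higher than in Ctrl, while most genes of the constitutive particle were slightly lower. In the TP5 and FR17 libraries most constitutive genes were slightly higher than in Ctrl, and no inducible subunit was called on the scale used. Against Ctrl, 5 of the 48 tested members were called higher and 4 lower in sFD17, where 13.4% of all tested genes were called higher and 15.6% lower. These calls were 10.4% and 8.33% of the tested members, neither above the share of genes at large, and the description below rests on which members they were. TP5 gave 0 calls higher and 1 lower, against a background of 8.98% and 11.8%, and FR17 gave 1 higher and 0 lower, against 11% and 11.7%. Between peptides, FR17 against sFD17 gave 12 higher and 2 lower (background 24.7% and 21.3%), FR17 against TP5 gave 3 higher and 0 lower (14.4% and 10.1%), and sFD17 against TP5 gave 5 higher and 4 lower (15.4% and 16.4%). The 12 higher in FR17 than in sFD17 were Psma4, Psma6, Psmb6, Psmc1, Psmc3ip, Psmc5, Psmc6, Psmd6, Psmd7, Psmd9, Psmg2 and Psmg3, none of them inducible or an activator, and the 2 lower were Psmb9 and Psme2. Those higher in FR17 than in TP5 were Psme2b, Psmg1 and Psmg3, and those lower in sFD17 than in TP5 were Psmc6, Psmd12, Psmg2 and Psmg3. With DESeq2 size factors Psmd7 (0.55) and Psmd9 (0.58) fell under the threshold for FR17 against sFD17, and Psmd12 (-0.57) for sFD17 against TP5. In the latter comparison Psmb10 gained a call, at 0.60. Many tested genes have few counts, whereas 45 members averaged at least 100. Among the 9427 genes that did so, 7.93% were called higher and 9.63% lower in sFD17 against Ctrl, 3.26% and 4.48% in TP5, and 3.28% and 8.02% in FR17. The shares were 18.6% and 20.1% for FR17 against sFD17, 6.04% and 5.59% for FR17 against TP5, and 9.60% and 11.1% for sFD17 against TP5. The counts of members depended on the scaling. With library size alone in place of TMM, 2 members were called higher and 7 lower in sFD17 against Ctrl, and the calls lost were Psmb8, Psmb9 and Psme1, at 0.55, 0.57 and 0.58. On that scale FR17 had 8 members called higher than Ctrl, the inducible Psmb10 among them at 0.69. FR17 against sFD17 then gave 35 higher and 1 lower, and sFD17 against TP5 gave 3 higher and 18 lower. Psmb10 was then also called higher in FR17 than in TP5, at 0.62.

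**Figure D1:**
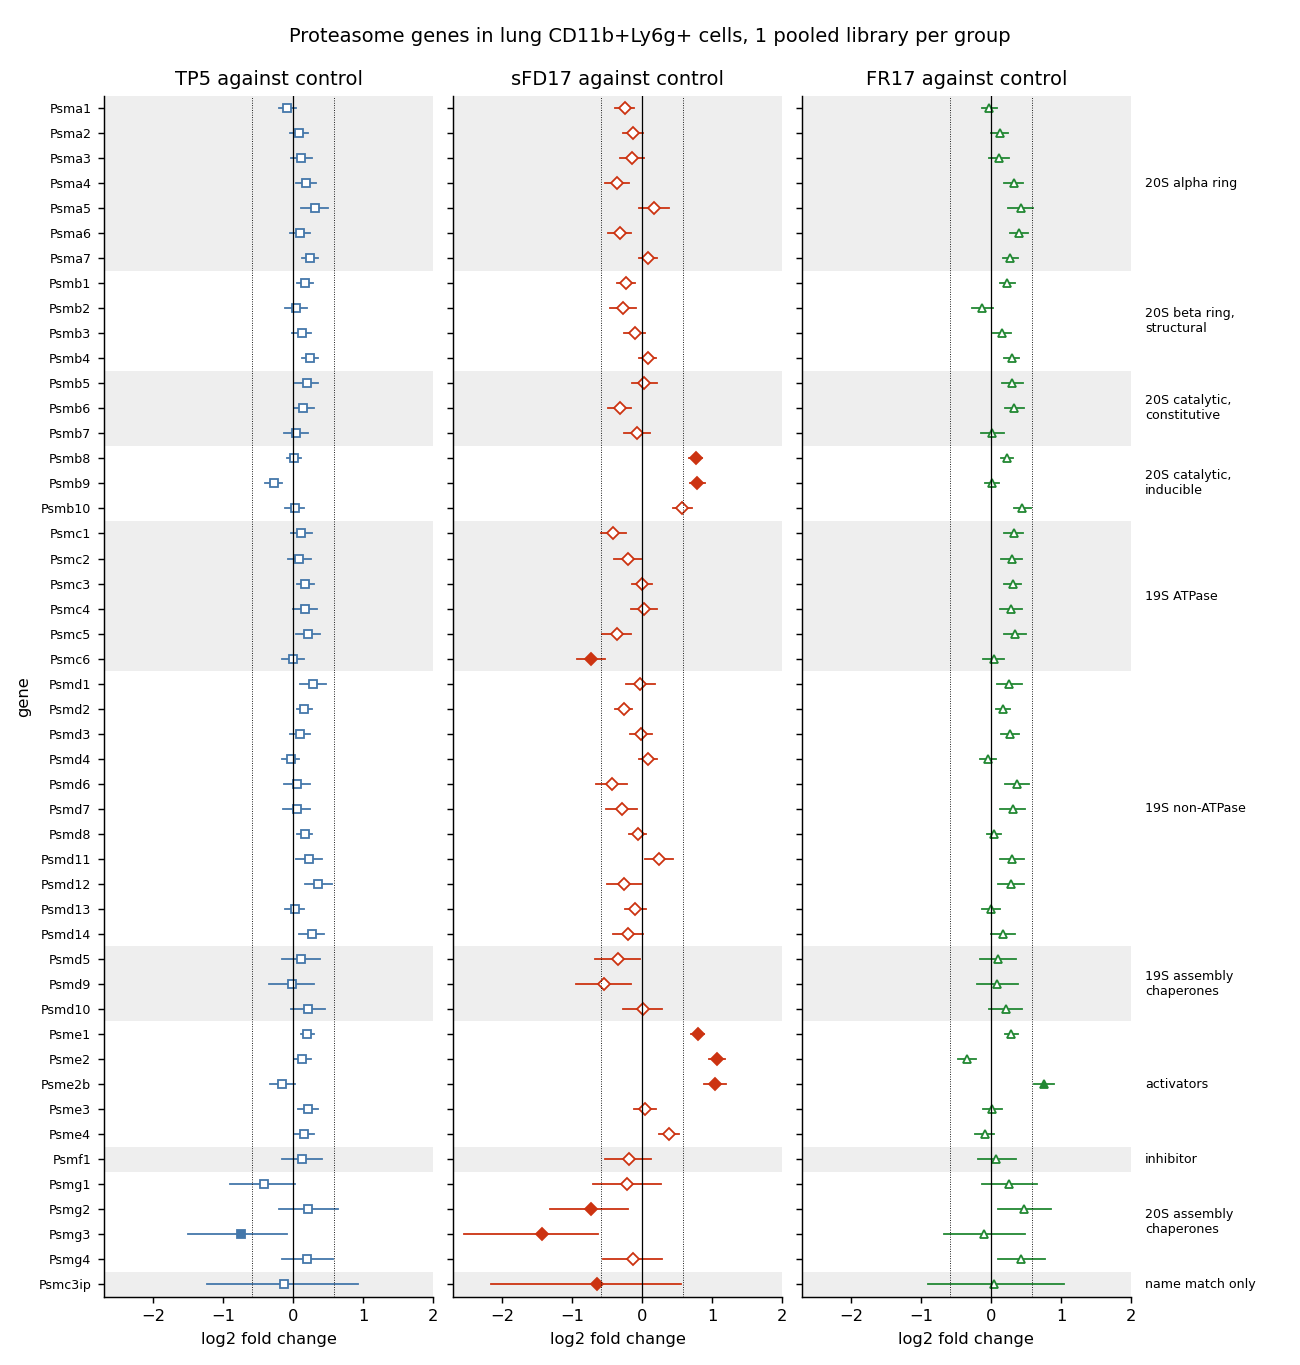
Log2 fold change of each tested member (rows, grouped by subunit class) in TP5, sFD17 and FR17 against control, with 95% counting intervals as horizontal lines, dotted lines at 1.5-fold and filled symbols for genes past it. In the sFD17 panel Psmb8, Psmb9, Psme1, Psme2 and Psme2b lie beyond the right dotted line and most other genes lie at or left of 0.

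The inducible catalytic subunits were examined first. Psmb8 (chr17:34197721-34201454), which carries the chymotrypsin-like activity of the immunoproteasome, stood at 97.4 CPM in Ctrl, 98.7 in TP5, 166 in sFD17 and 114 in FR17. sFD17 was the high library, 1.70-fold above Ctrl with a log2 fold change of 0.77 (0.67 to 0.86), and TP5 lay within counting error of Ctrl. FR17 was higher than Ctrl by 0.23 (0.14 to 0.32), under the 1.5-fold threshold. With library size alone Psmb8 was not called in sFD17, at 0.55, and sFD17 and FR17 were nearly level, at 51.4 and 48.9 RPKM per gene length and total counts.

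Psmb9 (chr17:34181988-34187764), which replaces Psmb6, stood at 75.6 CPM in Ctrl, 62.3 in TP5, 131 in sFD17 and 76.3 in FR17. Its log2 fold change was 0.79 (0.68 to 0.89) in sFD17 and -0.28 (-0.40 to -0.16) in TP5, and FR17 differed from Ctrl by less than counting error. With library size alone the sFD17 value was 0.57, under the threshold. Psmb9 overlaps Tap1 on the opposite strand over 212 exonic bases, and although the library kit keeps strand, whether counting used it is not given in the sources used here. Tap1 held 2828, 2378, 4970 and 3309 counts in Ctrl, TP5, sFD17 and FR17, and its part in the Psmb9 values was not tested.

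Psmb10 (chr8:105935735-105938444), the partner that replaces Psmb7, stood at 49.6 CPM in Ctrl, 50.5 in TP5, 74.0 in sFD17 and 67.7 in FR17. In sFD17 it was 1.49-fold above Ctrl, a log2 fold change of 0.58 (0.44 to 0.71), just under the threshold of 1.5-fold. With DESeq2 size factors it was 0.62 and was called. Unlike Psmb8 and Psmb9, Psmb10 was nearly as high in FR17 as in sFD17, with a log2 fold change of 0.45 (0.33 to 0.57) against Ctrl and of -0.13 (-0.24 to -0.01) for FR17 against sFD17. With library size alone the order of these libraries turned, at 36.9 RPKM in sFD17 and 46.4 in FR17, and the FR17 value against Ctrl was 0.69, past the threshold.

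The constitutive catalytic subunits differed less. Psmb5, the chymotrypsin-like subunit of the standard proteasome, stood at 32.6 CPM in Ctrl, 37.3 in TP5, 33.4 in sFD17 and 40.3 in FR17. Psmb6, the caspase-like subunit, stood at 44.6, 49.5, 35.8 and 56.3 CPM in the same order. Psmb7, the trypsin-like subunit, stood at 32.0, 33.0, 30.5 and 32.5 CPM. None of the 3 was called in any peptide against Ctrl. In sFD17 their log2 fold changes were 0.03 (-0.15 to 0.22), -0.32 (-0.49 to -0.15) and -0.07 (-0.26 to 0.12), so Psmb6 was the one below Ctrl beyond counting error. In FR17, Psmb5 and Psmb6 were above Ctrl by 0.31 and 0.33, and Psmb7 by 0.02. On the TMM scale Psmb6 was the constitutive subunit called between peptides, at 0.65 (0.50 to 0.81) for FR17 against sFD17. With library size alone Psmb5 was also called there, at 0.73, and Psmb6 for sFD17 against TP5, at -0.73. Psmb5 shares 22.2% of its 100-base windows with other annotated genes, mainly Gm3375 at 18 to 31 counts, and Psmb7 overlaps Nek6 (449 to 680 counts) on the opposite strand.

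**Figure D2:**
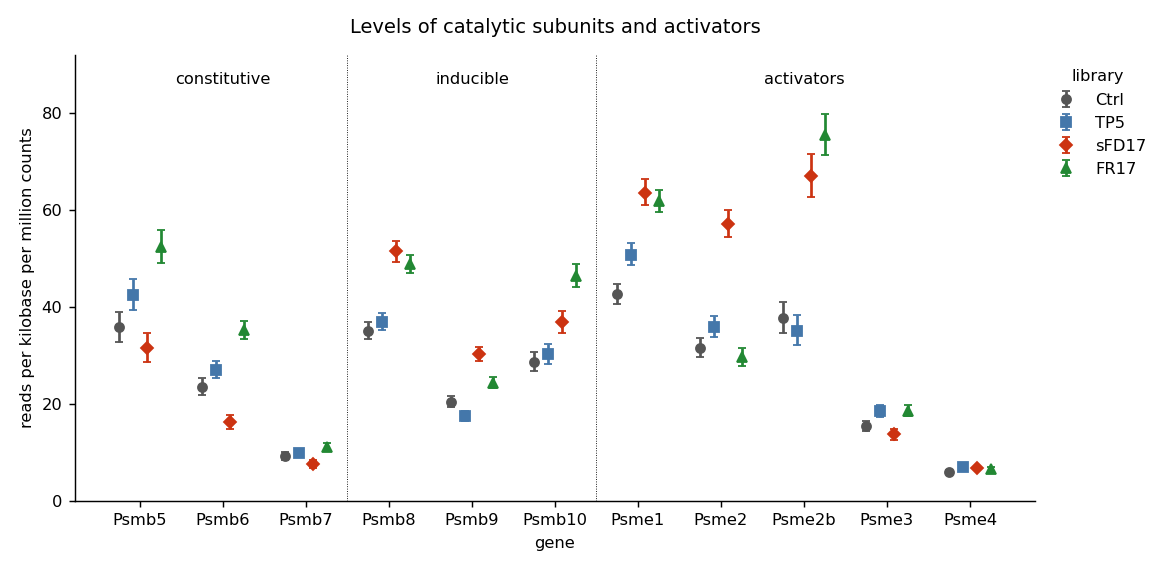
RPKM (counts divided by gene length in kilobases and by the library total) of the constitutive and inducible catalytic subunits and the activators in each library, with 95% Poisson counting intervals and no scaling for RNA composition. Psmb8 and Psmb9 are highest in sFD17, while Psmb5, Psmb6 and Psmb7 are lowest there, although on the TMM scale Psmb5 in sFD17 is at 33.4 CPM against 32.6 in Ctrl.

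The exchange of subunits was then read within each library, as the count of each inducible subunit over that of its constitutive partner. Such a ratio does not depend on the scaling between libraries. Its size depends on the lengths of the genes, so it is compared between libraries only. Psmb8 over Psmb5 was 2.99 in Ctrl (2.71 to 3.30), 2.64 in TP5 (2.41 to 2.90), 4.96 in sFD17 (4.47 to 5.51) and 2.84 in FR17 (2.63 to 3.06). Psmb9 over Psmb6 was 1.69, 1.26, 3.65 and 1.35 in the same order, and Psmb10 over Psmb7 was 1.55, 1.53, 2.43 and 2.09. In each pair the sFD17 library had the highest ratio, and in none did the interval in sFD17 reach that in Ctrl or TP5. The FR17 interval lay below that of sFD17 for Psmb8 and Psmb9 and met it for Psmb10 (1.91 to 2.28 against 2.16 to 2.74).

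Averaged over the 3 pairs, the log2 ratio of inducible to constitutive counts was 0.99 in Ctrl (0.91 to 1.07), 0.78 in TP5 (0.70 to 0.86), 1.82 in sFD17 (1.73 to 1.91) and 1.00 in FR17 (0.94 to 1.07). Against Ctrl the shift was 0.83 (0.71 to 0.95) in sFD17, -0.21 (-0.32 to -0.09) in TP5 and 0.01 (-0.09 to 0.12) in FR17. The FR17 mean joined pairs that went opposite ways, with shifts of -0.08 for Psmb8 over Psmb5, -0.32 for Psmb9 over Psmb6 and 0.43 for Psmb10 over Psmb7. In summed counts the inducible subunits made up 67.1% of the 6 genes in Ctrl, 63.8% in TP5, 78.8% in sFD17 and 66.7% in FR17.

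**Figure D3:**
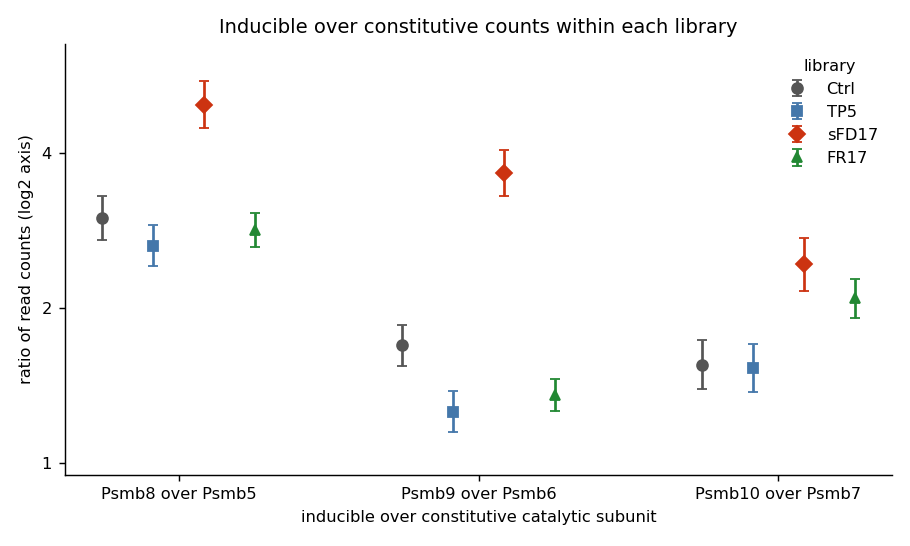
Ratio of read counts (log2 axis) of each inducible catalytic subunit over its constitutive partner in the 4 libraries, with 95% exact counting intervals. The sFD17 library has the highest ratio in all 3 pairs, and FR17 lies near Ctrl for Psmb8 over Psmb5, below it for Psmb9 over Psmb6 and above it for Psmb10 over Psmb7.

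The peptides were given at the same dose and days, so their libraries could be set side by side in 3 pairs, though without a test. sFD17, with the scrambled pentapeptide, exceeded FR17, with the TP5 sequence, by 0.82 in the mean log2 ratio (the difference for FR17 against sFD17 was -0.82, -0.93 to -0.71). It exceeded free TP5 by 1.04 (0.92 to 1.16). FR17 exceeded TP5 by 0.22 (0.12 to 0.32), a difference to which Psmb10 over Psmb7 gave 0.45 and the other pairs 0.10 and 0.11.

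Among the activators and the inhibitor, the PA28 genes and Psme2b, described below, were the ones called in sFD17. Psme1, the alpha subunit of PA28, stood at 95.4 CPM in Ctrl, 110 in TP5, 165 in sFD17 and 117 in FR17. Psme2, the beta subunit, stood at 56.5, 62.0, 119 and 44.7 CPM. Both were called higher in sFD17, by log2 fold changes of 0.79 (0.70 to 0.89) and 1.07 (0.95 to 1.19), of which Psme1 fell to 0.58 and lost its call with library size alone. They separated in FR17, with Psme1 above Ctrl by 0.29 (0.20 to 0.38) and Psme2 at -0.34 (-0.47 to -0.21). Psme3, which forms the nuclear activator PA28 gamma, stood at 46.1, 53.5, 47.5 and 46.8 CPM and was not called in any peptide. Psme4, the PA200 activator, stood at 50.7, 56.7, 66.2 and 47.6 CPM, with a log2 fold change of 0.39 (0.25 to 0.52) in sFD17 that did not reach the threshold. Psmf1, the PI31 inhibitor of the core, stood at 11.4, 12.5, 10.0 and 12.1 CPM, within counting error of Ctrl in each peptide.

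The FR17 value of Psme2 has to be read with Psme2b, an annotated retrocopy of Psme2 on chromosome 11 that shares 384 of its 100-base windows with it, 52.0% of the windows of Psme2b and 18.4% of those of Psme2. Psme2b stood at 32.0 CPM in Ctrl, 28.7 in TP5, 66.0 in sFD17 and 54.1 in FR17. It was called higher in sFD17 (1.04, 0.89 to 1.20) and in FR17 (0.75, 0.61 to 0.90). With library size alone the order of sFD17 and FR17 turned, at 67.0 and 75.6 RPKM. Psme2b was thus high where Psme2 was high in sFD17, and high where Psme2 was low in FR17. Psme2b also shares 41 exonic bases with 9930111J21Rik1 on the same strand. The counts of Psme2 and Psme2b summed were 1495, 1591, 2438 and 2268, of which Psme2b took 36.2%, 31.7%, 35.7% and 54.8%. Summed, the log2 fold change against Ctrl was 0.04 (-0.07 to 0.14) in TP5, 1.06 (0.97 to 1.16) in sFD17 and 0.16 (0.06 to 0.25) in FR17. The rise in sFD17 was about as large for the sum as for either gene, while the split between the copies in FR17 is uncertain because the authors' counting could divide shared reads between them.

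Per kilobase of gene, Psme1 led the family in Ctrl, and PA28 and inducible genes held the first places in sFD17. In Ctrl the highest levels among members were those of Psme1 at 42.6 RPKM, Psma6 at 38.1, Psme2b at 37.7, Psmb5 at 35.8 and both Psmb4 and Psmb8 at 35.1. Neighbours in this order had overlapping intervals. In sFD17 the first 5 places were taken by Psme2b at 67.0 RPKM, Psme1 at 63.6, Psme2 at 57.2, Psmb8 at 51.4 and Psmb10 at 36.9. Of these, Psme2b and Psme1 had overlapping intervals. The order depends on the length a count is divided by. With the longest coding transcript in place of the deposited gene length, Psmb8 over Psmb5 in Ctrl was 1.65 instead of 0.982, and Psme1, Psme2, Psmb8 and Psmb9 led the sFD17 library at 126, 105, 86.4 and 82.0 RPKM.

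The 31 constitutive subunits of the 26S particle (the alpha ring, Psmb1 to Psmb7, and the ATPase and non-ATPase subunits of the cap) shifted little, but mostly together. In TP5, 28 were above Ctrl and 3 below, with a median log2 fold change of 0.15. In FR17, 28 were above and 3 below, with a median of 0.28, and in sFD17, 8 were above and 23 below, with a median of -0.14. The medians over all tested genes were 0.00, 0.02 and -0.03. These comparisons share the Ctrl library. None of the 31 was called in TP5 or FR17, and 1, Psmc6, was called in sFD17, where 8.98% of all tested genes were called higher and 11.8% lower in TP5, 11% and 11.7% in FR17, and 13.4% and 15.6% in sFD17. With library size alone in place of TMM scaling, the median of all genes moved to 0.05 in TP5, 0.26 in FR17 and -0.23 in sFD17, and 28, 27 and 9 of the 31 lay above that median. On that scale Psma5 (0.67), Psma6 (0.65), Psmc5 (0.59) and Psmd6 (0.61) were called in FR17, and Psmc1 (-0.62) and Psmd6 (-0.65) in sFD17 beside Psmc6.

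**Figure D4:**
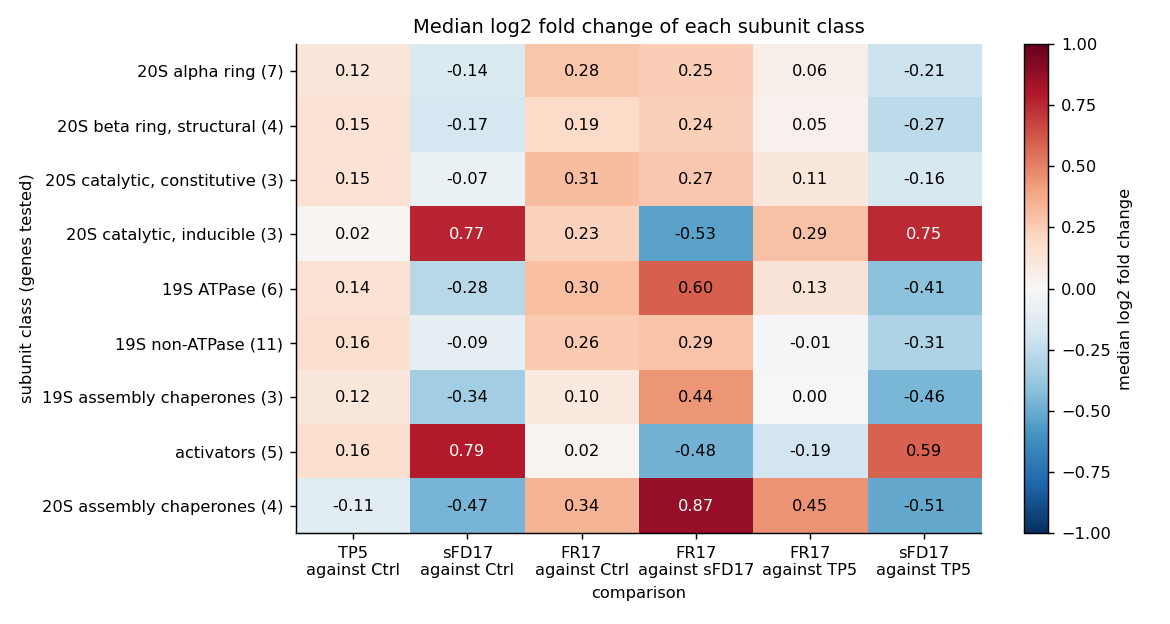
Median log2 fold change of each subunit class (rows, with the number of tested genes) in the 6 comparisons (columns). On the TMM scale the inducible catalytic subunits and the activators have the opposite sign to every other class in sFD17 against control and against TP5, and in FR17 against sFD17.

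In the 20S core, none of the 7 alpha-ring genes was called against Ctrl, and their median was 0.28 with FR17, 0.12 with TP5 and -0.14 with sFD17. Psma6, the highest of them in Ctrl per deposited gene length but not in CPM, stood at 47.7 CPM in Ctrl, 51.2 in TP5, 38.2 in sFD17 and 63.0 in FR17. It was low in sFD17 (-0.32, -0.48 to -0.16) and high in FR17 (0.40, 0.28 to 0.53), and it was called between them at 0.72. Psmb4, the structural beta gene with the highest level per deposited gene length in Ctrl, differed less, at 69.5, 81.9, 73.5 and 85.3 CPM. The other structural beta genes, Psmb1, Psmb2 and Psmb3, lay between -0.26 and -0.10 in sFD17.

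In the 19S cap, the ATPase genes had the lower median in sFD17, -0.28, against -0.09 for the 11 non-ATPase genes. Psmc6 stood at 39.3 CPM in Ctrl, 39.1 in TP5, 23.6 in sFD17 and 40.3 in FR17. It was low in sFD17 alone, with a log2 fold change of -0.73 (-0.93 to -0.54), and the other libraries were within counting error of Ctrl. Psmc5, the highest ATPase gene per deposited gene length in Ctrl, stood at 30.4, 35.4, 23.7 and 38.7 CPM and was not called against Ctrl. Psmc1 and Psmc5 were at -0.41 and -0.36 in sFD17, whereas Psmc3 and Psmc4 were at 0.01 and 0.02, so the 6 ATPases that form 1 ring did not shift equally. Psmd8, the highest non-ATPase gene per deposited gene length in Ctrl, stood at 79.3, 89.2, 75.9 and 81.9 CPM. Psmd12 was the highest of all members in TP5 at 0.36 (0.16 to 0.56), and Psmd6 had the widest gap between FR17 and sFD17 in the cap, 0.80 (0.60 to 1.01).

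The assembly factors were scarce, which widened their intervals. Psmg1 to Psmg4, chaperones that build the 20S core, were all below Ctrl in sFD17, with a median of -0.47, and above sFD17 in FR17, with a median of 0.87. Psmg2 stood at 5.33 CPM in Ctrl, 6.21 in TP5, 3.18 in sFD17 and 7.41 in FR17, from 42 to 170 counts, and was called lower in sFD17 at -0.72 (-1.31 to -0.20). Psmg3 was called lower in TP5 at -0.74 (-1.50 to -0.09) and in sFD17 at -1.43 (-2.54 to -0.62), from 48, 29, 13 and 61 counts in Ctrl, TP5, sFD17 and FR17. Psmg4, the most abundant of them in Ctrl, stood at 6.99 CPM in Ctrl, 8.04 in TP5, 6.36 in sFD17 and 9.41 in FR17. It was not called, at 0.20, -0.13 and 0.42 in the 3 peptides. Psmd5, Psmd9 and Psmd10, chaperones of the 19S base, were at -0.34, -0.54 and 0.01 in sFD17, and Psmd10 led them in Ctrl. Psmd10 stood at 14.6, 16.9, 14.7 and 16.9 CPM, within counting error of Ctrl in each peptide. Psma8, the testis alpha subunit, held 9, 8, 1 and 9 counts, and Psmb11, the thymus subunit, held 0, 2, 0 and 0, where a count of 0 allows up to 3 counts. Neither passed the filter. Psmc3ip was called lower in sFD17 at -0.64 (-2.15 to 0.56) from 17 and 8 counts.

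Genes around the proteasome were taken from lists chosen with earlier results of these data known, and were read on the TMM scale. Of 15 partners outside the name rule, among them the maturation factor Pomp and the deubiquitinases Usp14 and Uchl5, 0 were called in any peptide against Ctrl, where the shares of all tested genes, higher and lower, were 8.98% and 11.8% in TP5, 13.4% and 15.6% in sFD17, and 11% and 11.7% in FR17. Their median in sFD17 was -0.13, and Fbxo7, a PI31-binding protein, had the widest difference, -0.58 in TP5, followed by the shuttle factor Ubqln2 at -0.41 in sFD17 and by Zfand2a at -0.41 in FR17. Pomp, which serves both forms of the core, held 1119, 1240, 920 and 1810 counts and lay at 0.07 in sFD17.

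Of 6 interferon transcription factors, 4 were called higher in sFD17 (Irf1, Irf7, Irf9 and Stat2) and 0 in TP5 or FR17. Of all tested genes, 13.4% were called higher and 15.6% lower in sFD17, 8.98% and 11.8% in TP5, and 11% and 11.7% in FR17. Irf7 held 2346, 2939, 9579 and 2488 counts in Ctrl, TP5, sFD17 and FR17, a log2 fold change of 2.38 in sFD17, and Stat2 was at 2.03, Irf9 at 0.86 and Irf1 at 0.68. Irf2 and Irf8 were not called in any peptide, at 0.40 and -0.06 in sFD17 and at -0.29 and 0.55 in FR17. FR17 lay below Ctrl for Irf7, Stat2, Irf9 and Irf1, at -0.36, -0.36, -0.44 and -0.48, and Irf1 was at -0.53 in TP5. Of 19 tested genes of class I peptide processing, 6 were called higher and 3 lower in sFD17, where 13.4% of all tested genes were called higher and 15.6% lower. Nlrc5, the transactivator of MHC class I genes, held 1017, 861, 3530 and 1229 counts, a log2 fold change of 2.15 in sFD17. Tapbpl, a peptide editor, was at 1.42 and the peptide transporter Tap1 at 1.17. Tap2, Tapbp and H2-T23 were the others called higher, and Canx, at -0.57, was close to the 3 called lower, Pdia3 (-0.62), Lap3 (-0.94) and Thop1 (-1.14). Of the class I chains, H2-T23 was thus called in sFD17, at 0.67, whereas H2-K1 (0.08), H2-D1 (0.22), H2-Q7 (-0.11) and B2m (0.13) were not. In TP5, H2-Q7 was the 1 gene of the 19 called, at -0.60, where 11.8% of all tested genes were called lower.

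Among 15 ubiquitin genes and enzymes, 3 were called higher in sFD17, and all serve the ubiquitin-like modifier Isg15: Isg15 itself at 2.00, its conjugating enzyme Ube2l6 at 2.00 and its activating enzyme Uba7 at 1.10. Rps27a (-1.08), which encodes ubiquitin fused to a ribosomal protein, and Uba6 (-0.64) were called lower. Rps27a was also called lower in TP5 (-0.86) and lay at 0.06 in FR17. These 3 and 2 calls of 15 stand beside the same 13.4% and 15.6% of all tested genes. Of 9 regulators of proteasome genes, 2 were called higher in sFD17, the partner protein Mafk at 0.64 and Nfe2l3 at 0.64 from 10 and 13 counts, against the same 13.4% of all tested genes. Nfe2l3 was also called in TP5 (1.18) and FR17 (0.60), from 26 and 22 counts. In FR17, Nfe2l2 and Mafk were called lower, at -0.70 and -0.69, as was Isg15 at -0.70, and Keap1, which holds Nfe2l2 in check, lay at 0.47. The calls in TP5 and FR17 stand beside shares of all tested genes. These were 8.98% higher and 11.8% lower in TP5, and 11% and 11.7% in FR17. Nfe2l1, the factor that raises constitutive proteasome genes when the protease is inhibited, lay at 0.19, 0.16 and 0.22 in TP5, sFD17 and FR17.

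**Figure D5:**
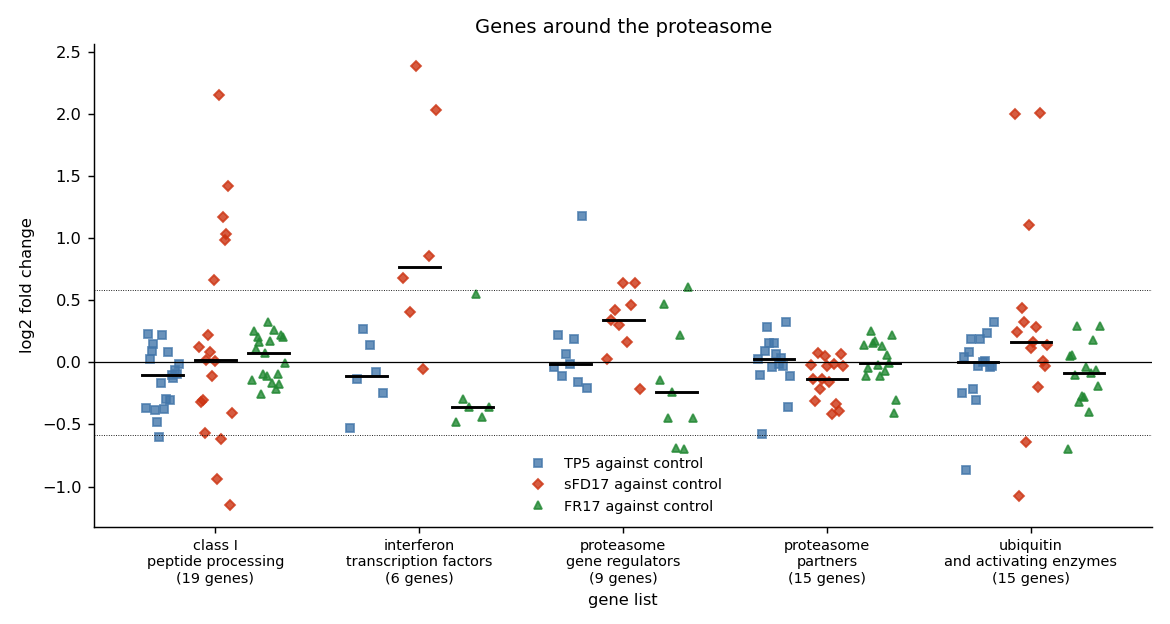
Log2 fold change against control of each tested gene in 5 lists around the proteasome, in TP5, sFD17 and FR17, with the list median as a black bar and dotted lines at 1.5-fold. The interferon transcription factors stand above the upper dotted line in sFD17 for 4 of 6 genes, while the 15 proteasome partners stay within the dotted lines in all 3 peptides.

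Cell type markers, read on the TMM scale, moved beside these results. The TMM factor was 0.986 in Ctrl and 1.17 in FR17, so small differences between these libraries can turn under library size alone. In the sFD17 library all 12 macrophage markers were below Ctrl and all 11 granulocyte markers above it, and in FR17, 10 of the 12 macrophage markers and all 6 natural killer cell markers were above Ctrl, while 7 of the 11 granulocyte markers were below it, 2 of them past 1.5-fold (Csf3r at -1.04 and Cxcr2 at -0.88). The 5 monocyte markers summed to 0.826-fold of Ctrl in TP5, with 2 of 5 higher, and to 0.699-fold in sFD17. In sFD17, 4 of 5 were lower and Ly6c2 was higher at 1.42. In FR17 they summed to 0.928-fold although 4 of 5 were higher, with Fn1 lower at -0.48. The 4 epithelial markers summed to 2.07-fold of Ctrl in sFD17, with 2 of 4 higher, and the 6 T cell markers to 1.76-fold in FR17, with all higher, and to 0.585-fold in sFD17, with 2 of 6 higher. The 4 endothelial markers summed to 0.788-fold of Ctrl in TP5, where 3 of the 4 were lower past 1.5-fold. They summed to 1.11-fold in sFD17 and 1.21-fold in FR17, with all 4 higher in each. In TP5 the dendritic cell markers summed to 1.90-fold, the B cell markers to 1.72-fold and the fibroblast markers to 0.580-fold of Ctrl. The part of all these markers in the differences of the inducible and constitutive subunits was not tested.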

How the data were processed

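RNA-seq was analysed for the 4 sorted-cell libraries. The read counts per gene were deposited by the authors as whole numbers with a gene length, and per the labels the tools used were HISAT2 2.0.5, StringTie 1.3.3b, featureCounts 1.5.0-p3 and edgeR 3.18.1, on GRCm38.p6. Genes with at least 10 counts in 1 library were scaled by TMM in edgeR 4.0.16 (R 4.3.3), and log2 CPM was computed with a prior count of 2. With 1 library per group no model was fitted, and a gene was called at 1.5-fold. Counting intervals are exact Clopper-Pearson intervals for a ratio of counts and exact Poisson intervals for a level. Depth was 15543071 to 19638228 counts, where a count of 0 allows up to 3 counts, 0.131 to 0.227 CPM. Calls, intervals and scaling were run on simulated counts with known fold changes, Poisson error only and a common expression profile. Such counts hold no spread between mice and cannot show whether TMM scaling suits these libraries.

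RPKM used the deposited gene length and total counts, with no TMM scaling. Exon overlaps and shared 100-base windows came from GENCODE M21, in which 54495 of the 54532 gene identifiers were found, and 46 of the 50 members had a deposited length equal to their summed exons. Promoters came from RefSeq on GRCm38.p6, and no coordinates were converted.

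Members, classes and gene lists were chosen with earlier results of these data known. Described in full were Psmb5 to Psmb10, Psme1 and Psme2, the member with the highest level in Ctrl in each other class, members past 1.5-fold against Ctrl that held 50 counts or more in either library compared, and the 3 genes of each list with the widest fold change. Other genes were named after their values were seen, and 1 interferon gene beyond the 6 listed is not reported here. DESeq2 1.42.0 size factors, library size alone, prior counts, filters and a 2-fold threshold were tried as alternatives.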

Additional observations from a re-analysis of the deposited data

How the results depend on the processing

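No paired analysis was possible because each group had 1 library, and for the same reason no library could be left out. No fold change of a member that was past 1.5-fold changed sign under any alternative tried. Smaller ones did, 37 of 288 under library size alone, the widest at -0.29 as reported for Psme2b in FR17 against sFD17, and 15 or fewer under each other scaling or filter. DESeq2 size factors, a prior count of 0.5, a filter of 10 counts in every library and centring on abundant protein-coding genes kept all log2 fold changes of the members within counting error of the reported ones. Library size alone moved 199 of 288, in the direction of the shift of all genes given above. At 2-fold, the members called lower in TP5 numbered 0, those higher and lower in sFD17 2 and 1, those higher in FR17 0, those higher and lower in FR17 against sFD17 2 and 1, those higher in FR17 against TP5 0, and those higher and lower in sFD17 against TP5 2 and 0. With DESeq2 size factors Psmb10 was the one member that gained a call against Ctrl, in sFD17 at 0.62. It also gained one in sFD17 against TP5, at 0.60, while Psmd7 and Psmd9 lost theirs in FR17 against sFD17 and Psmd12 in sFD17 against TP5. Library size alone gave 2 higher and 7 lower in sFD17, where Psmb8, Psmb9 and Psme1 lost theirs, 8 higher in FR17, Psmb10 among them, 35 higher and 1 lower in FR17 against sFD17, and 3 higher and 18 lower in sFD17 against TP5. Without a filter on low counts, 1 was higher in TP5, 1 lower in FR17 against TP5 and 7 lower in sFD17 against TP5. The last count gained Psmc5, which the filter keeps, beside the 2 genes it removes.

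Under library size alone the class medians in sFD17 were -0.36 for the alpha ring, -0.38 for the structural beta ring, -0.28 for the constitutive and 0.55 for the inducible catalytic subunits, -0.49 for the ATPases, -0.31 for the non-ATPases and 0.58 for the activators. In FR17 they were 0.52, 0.44, 0.55, 0.48, 0.55, 0.51 and 0.27. Without the pair Psmb9 and Psmb6, the mean shift in the log2 ratio was 0.69 in sFD17 and 0.18 in FR17, -0.51 for FR17 against sFD17 and 0.79 for sFD17 against TP5. Without the pair Psmb10 and Psmb7 it changed sign in FR17, to -0.20, and was -1.12 for FR17 against sFD17, 0.10 for FR17 against TP5 and 1.22 for sFD17 against TP5. Chosen after seeing the data were the sum of Psme2 and Psme2b, which gave -0.90 for FR17 against sFD17 and turned the sign of Psme2 in FR17, from -0.34 to 0.16 against Ctrl and from -0.47 to 0.12 against TP5, and the transcript length, which moved all 12 within-library ratios per kilobase beyond counting error. Class medians between peptides were not run under other scalings.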
